A study of Mus musculus with 47 samples.

Results

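Medial prefrontal cortex (PFC) of mice that breathed only air was compared between 8h and 0h after the last session in the inhalation chambers. The members were the 6 Ctrl 8h arrays and the 6 Ctrl 0h arrays, 12 of the 47 arrays of the series, taken by the group in the sample titles, and all 45037 probesets that were not control probes were tested. The comparison asks what the time of day changes in the cortex of air-exposed mice. The hour of the clock at harvest is not given in the sources used here, so each value is placed only by its distance from the end of exposure. Ctrl 8h mice had also spent 8 hours outside the chamber, and the Ctrl 8h and Ctrl 0h mice alone cannot tell time of day from time since the last session. Ctrl 72h and Ctrl 7d mice, harvested whole days after the last session, are set beside them below.

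All of these mice were adult male C57BL/6J animals, housed singly on a light/dark cycle and carrying no genetic modification that the labels name. Ctrl mice sat in air-filled chambers for 16 hours a day over 4 days, then had 7 days without exposure, and went through 4 such cycles. The controls were not untreated, because each cycle began with an intraperitoneal injection of saline and of pyrazole at 1 mmol/kg, a blocker of alcohol dehydrogenase that the ethanol mice also received. Other groups used below are Ctrl 72h and Ctrl 7d (6 mice each), and the CIE (chronic intermittent ethanol) groups, which inhaled ethanol vapor on the same schedule and were harvested at 8h (5 mice) or 0h (6 mice). Each array holds the RNA of 1 mouse.

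The labels also divide the arrays into repeat groups. Only 8h mice are found in repeat group 2 (3 Ctrl and 2 CIE), while every other array, 42 in all, lay in repeat group 1, with 3 Ctrl 8h mice and all 6 Ctrl 0h mice among them. Before deposit, the authors adjusted the values for repeat group as the only batch factor, and whether harvest time entered that step is not stated in the sources used here. Since repeat group 2 held no other harvest time, the test was repeated with the 3 Ctrl 8h mice of repeat group 1 against the same 6 Ctrl 0h mice. Values are log2 RMA intensities, called levels below, and every difference is Ctrl 8h minus Ctrl 0h on the log2 scale unless said otherwise. Probesets were called at an adjusted p of at most 0.01, from limma with Benjamini-Hochberg adjustment over all probesets.

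The mammalian clock is a loop of transcription with a period of about a day. CLOCK and NPAS2 pair with BMAL1 (encoded by Arntl) and turn on Per, Cry, Nr1d, Dbp and Ciart genes from E-box elements, and PER and CRY proteins then stop the pair. REV-ERB proteins (Nr1d1, Nr1d2) and ROR proteins compete on ROR elements to set Arntl, and the PAR bZIP factors DBP, TEF and HLF, opposed by NFIL3, pass the rhythm on through D-boxes. The loop runs in cortex as in most tissues, and outputs such as Dbp and Ciart swing over a wide range within a day, while Clock itself usually varies little. Cortical genes of neuronal activity, such as Arc and Fos, also follow waking and sleep.

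Of 20 listed core and output clock genes, 19 were measured. RefSeq promoters of assembly GRCm38.p6, windows of 300 bases of which the last 50 lie past the gene's start, were at hand for 17 of these, and Per2 and Bhlhe40 were not in the table. The window of Ciart, the output gene with the largest difference, and 1 window of Per1, a repressor gene that did not pass, are printed. Both carry a match to the E-box, an element through which the loop reads itself. Capitals mark an E-box (CACGTG) in both promoters. In that of Per1 they also mark AGGTCA (here as TGACCT on the printed strand) and a D-box (TTATGCAA). The letters AGGTCA are only part of a ROR element, and the rest of that element was not searched for.
Ciart: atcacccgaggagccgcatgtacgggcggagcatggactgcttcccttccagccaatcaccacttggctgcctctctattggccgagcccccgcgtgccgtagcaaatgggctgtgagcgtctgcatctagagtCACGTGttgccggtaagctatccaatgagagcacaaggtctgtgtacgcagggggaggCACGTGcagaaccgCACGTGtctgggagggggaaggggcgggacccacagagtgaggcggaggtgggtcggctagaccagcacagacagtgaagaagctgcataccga
Per1: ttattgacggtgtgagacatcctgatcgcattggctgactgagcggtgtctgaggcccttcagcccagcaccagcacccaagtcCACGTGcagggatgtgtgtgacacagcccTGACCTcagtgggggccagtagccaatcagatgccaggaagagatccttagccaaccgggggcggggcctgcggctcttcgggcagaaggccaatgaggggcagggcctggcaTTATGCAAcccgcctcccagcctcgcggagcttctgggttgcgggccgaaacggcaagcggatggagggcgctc
The Ciart window (chr3:95882179-95882478, minus strand) holds 3 E-boxes. The printed Per1 window (chr11:69098699-69098998, plus strand) holds 1 E-box, 1 AGGTCA and 1 D-box. Another Per1 window (chr11:69099902-69100201, plus strand), not printed, holds no E-box, AGGTCA, D-box or CRE. Motifs were read on both strands and none contains another. An E-box stood in 7.15% of 32851 promoters, AGGTCA in 16.3%, a D-box (TTATGTAA or TTATGCAA) in 1.66% and a CRE (TGACGTCA) in 1.79%. Of the 17 clock genes, 5 had an E-box, 5 had AGGTCA, 2 a D-box and 1 a CRE in a window of theirs. A match describes the letters in a window and not a bound site.

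Across the whole array, 643 of 45037 probesets (1.43%) passed between Ctrl 8h and Ctrl 0h, 310 higher and 333 lower at 8h. These covered 455 named genes, with a median difference of 0.458 in either direction, and 4 probesets moved by more than 1. With repeat group 1 alone, 2035 probesets (4.52%) passed, 1027 higher and 1008 lower, in 1423 named genes and with a median of 0.52, and 33 moved by more than 1. The median of all probesets was -0.006 over all arrays and -0.007 in repeat group 1. Both fits share the 9 mice of repeat group 1, and 580 calls were common to them, 90.2% of the calls over all arrays and 28.5% of those in repeat group 1. The 3 Ctrl 8h mice of repeat group 2 set against the same Ctrl 0h mice gave 0 calls in limma, with 21 at an adjusted p of 0.05 and 4583 at an unadjusted p of 0.05. Repeat group 2 held 8h mice alone, and its batch adjustment can shrink or add differences at 8h. With that and 3 mice, the 0 calls cannot show that a difference was lacking.

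Most of the called probesets were dim. When all probesets were divided into tertiles by mean level, at 5.10 and 7.93, the lowest tertile held 60% of the calls over all arrays and 52.7% in repeat group 1, against 3.42% and 5.65% in the highest tertile. Numbers of calls by tertile were 386, 235 and 22 over all arrays and 1072, 848 and 115 in repeat group 1, from dim to bright. Where each gene was read from its brightest probeset alone, 214 of 18193 genes (1.18%) passed over all arrays and 703 (3.86%) in repeat group 1.

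**Figure D1:**
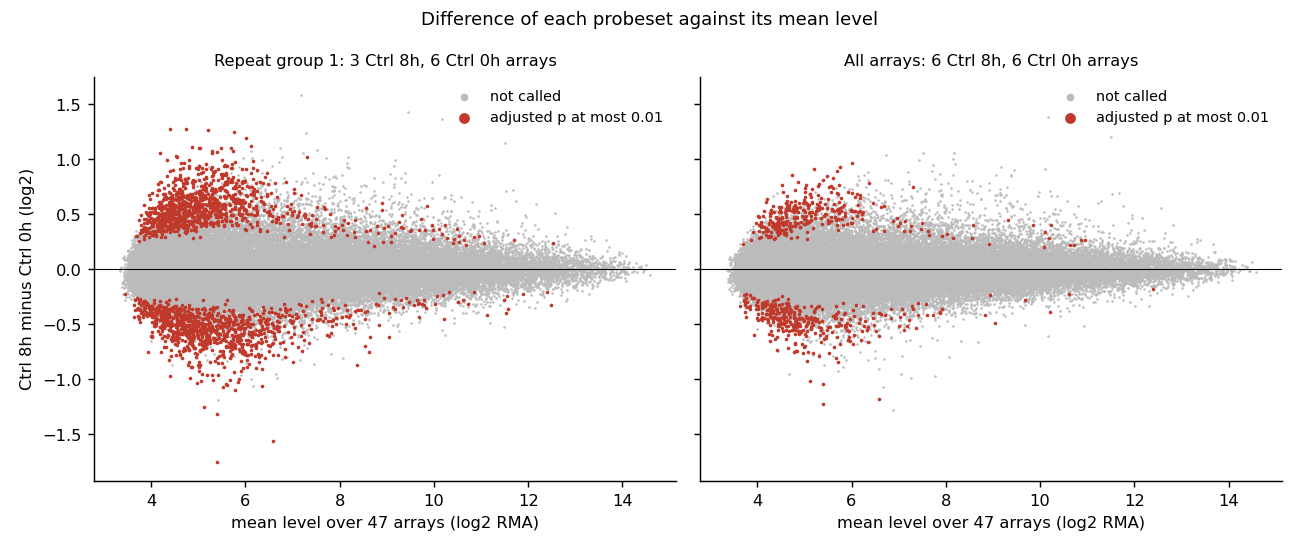
Ctrl 8h minus Ctrl 0h of each probeset (vertical, log2) against its mean level over 47 arrays (horizontal, log2 RMA), over all arrays and within repeat group 1; colored points have an adjusted p of at most 0.01. The 643 and 2035 colored points lie mostly at low and middle levels, and the bright tertile holds 22 and 115 of them.

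When the Ctrl 8h mice of repeat group 1 were set against those of repeat group 2, 1 probeset (0.00222%) passed, that of Slc16a3, and 31 passed at an adjusted p of 0.05. The values had already been adjusted for repeat group, so this count does not show how far the repeat groups differed before that step. Among Ctrl 0h mice, mouse 2 and mouse 20 stood apart from the other 10 mice of the comparison, at 55.3 and 56.5 on the first principal component (36.3% of the variance), where the rest lay between -24 and -1.7. Without these 2 mice 168 probesets were called over all arrays, of which 145 were among the 643, and 1282 in repeat group 1, of which 1139 were among the 2035. Array medians lay between 6.39 and 6.42, and any one of the 12 arrays correlated with its fellows at 0.987 to 0.994 on average; precision is set by the number of mice. Over the 12 mice, mean levels of neuronal markers were 13.7 for Camk2a, 12.8 for Nrgn and 12.4 for Gad1, and levels of different probesets are not set against each other. Markers typical of neighboring striatum averaged 9.63 for Drd1, 9.22 for Ppp1r1b and 8.22 for Rgs9, and 4.89 for Drd2, and none of these passed in either fit. Of the choroid plexus, Kl averaged 4.56 and Ttr ranged from 5.82 to 10.8 among the 12 mice. Of the meninges, Col1a1 averaged 4.83, Dcn ranged from 6.01 to 9.95 and Igf2 from 7.51 to 10.2, and Hba-a1 of blood averaged 4.66. No measured gene of the choroid plexus list (10) or the meninges list (12) passed in either fit (2 and 3 choroid plexus genes and 0 meningeal genes at an unadjusted p of 0.05), and their part in other differences was not tested. Ctrl 0h mouse 56 stood apart in the mean level of the meninges list, at 7.81, where the 6 Ctrl 8h mice lay between 5.51 and 6.22 and the other 5 Ctrl 0h mice between 5.72 and 5.96.

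None of the 19 clock genes passed over all 12 mice in limma, with 6 (31.6%) at an unadjusted p of 0.05, where 18.9% of the 18193 genes read on their brightest probeset reached it. In repeat group 1, Ciart and Clock passed, both lower at 8h. That is 2 of 47 probesets for these genes, or 4.26%, beside 4.52% of all probesets. Counted by gene on the brightest probeset it is 2 of 19, beside 3.86% of all genes. Ciart and Clock lie in the highest tertile of level. In that fit this tertile held 115 of the 2035 calls, and the equally large lower tertiles 1072 and 848. Bright probesets were thus called less often than the 4.52% of all probesets, and the shares above do not allow for level. An unadjusted p of 0.05 was reached in repeat group 1 by 4 of the 19 (21.1%), beside 22.9% of all genes. The classical high-amplitude repressor and output genes Per1, Per2, Per3, Nr1d1 and Dbp did not pass in either fit.

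Ciart encodes CHRONO, a repressor that binds the CLOCK-BMAL1 pair and is itself switched on by it. Its level in Ctrl 8h mice was 8.16, 8.17 and 7.36 in repeat group 1 and 8.53, 8.67 and 8.63 in repeat group 2, against a range of 8.13 to 9.13 with a median of 8.64 in the 6 Ctrl 0h mice. One Ctrl 8h mouse lay below every Ctrl 0h mouse, and the groups overlapped, the lowest Ctrl 0h mouse being below the other two Ctrl 8h mice of repeat group 1. The difference in repeat group 1 was -0.76 with a standard error of 0.18 (adjusted p = 0.00561), or 0.592-fold, and over all arrays it was -0.40 with a standard error of 0.18 (adjusted p = 0.201). The mice of repeat group 2 differed from Ctrl 0h by -0.04. Ciart passed in 5 of 9 fits that left out 1 of the 9 mice, losing the call without Ctrl 8h mouse 66 or 79 or Ctrl 0h mouse 12 or 20, and its adjusted p was 0.142 without mouse 79. With Ctrl 0h mice 2 and 20 both left out, its difference in repeat group 1 was -0.74 (adjusted p = 0.0179).

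Clock encodes the histone acetyltransferase partner of BMAL1. Its level in Ctrl 8h mice was 9.82, 9.83 and 9.83 in repeat group 1 and 9.96, 9.92 and 9.96 in repeat group 2, against 9.99 to 10.38 with a median of 10.12 in Ctrl 0h mice. All 6 Ctrl 8h mice lay below all 6 Ctrl 0h mice. The difference was -0.32 with a standard error of 0.08 in repeat group 1 (adjusted p = 0.00957), or 0.803-fold, and -0.26 over all arrays (adjusted p = 0.0556). This came from 1 of 4 Clock probesets, the brightest (1435775_at), while the other 3 gave -0.03, -0.08 and -0.10 in repeat group 1. It passed in 1 of the 9 fits that left out a mouse (that without Ctrl 0h mouse 56), with adjusted p between 0.00614 and 0.0526.

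The other activators did not pass. Arntl had levels of 9.07, 8.98 and 9.38 in the Ctrl 8h mice of repeat group 1 and 8.78, 8.74 and 9.04 in those of repeat group 2, against 8.76 to 9.27 with a median of 9.16 in Ctrl 0h mice, so that the groups overlapped throughout. Its difference was 0.06 in repeat group 1 (adjusted p = 0.812) and -0.08 over all arrays (adjusted p = 0.713), with opposite signs. Npas2, which can stand in for Clock in forebrain, differed by 0.12 (adjusted p = 0.522) and 0.02 (adjusted p = 0.941).

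Among the repressors, Per1 had levels of 9.60, 9.80 and 9.66 in Ctrl 8h mice of repeat group 1 and 9.94, 9.42 and 9.65 in those of repeat group 2, against 9.26 to 10.44 with a median of 9.98 in Ctrl 0h mice. The Ctrl 8h mice all fell inside the Ctrl 0h range, and the difference was -0.20 with a standard error of 0.18 in repeat group 1 (adjusted p = 0.539). The low end of that range was Ctrl 0h mice 2 and 20, at 9.26 and 9.52. Without them Per1 differed by -0.45 in repeat group 1 (adjusted p = 0.0988) and by -0.45 over all arrays (adjusted p = 0.0741). With all mice of repeat group 1, Per2 differed by -0.02 (adjusted p = 0.956) and Per3 by 0.12 (adjusted p = 0.42). The cryptochrome genes did not pass in either fit, and their groups overlapped over all 12 mice. Cry1 was 7.65, 7.64 and 7.62 in Ctrl 8h mice of repeat group 1, against at most 7.59 in Ctrl 0h mice, a difference of 0.16 (adjusted p = 0.49). Cry2 was 10.43, 10.41 and 10.49, against at most 10.40, a difference of 0.39 (adjusted p = 0.149). Without Ctrl 0h mice 2 and 20 the difference of Cry2 in repeat group 1 was 0.19 (adjusted p = 0.582).

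The stabilizing loop gave differences near 0. The receptor genes Nr1d1 and Nr1d2, whose products repress Arntl, differed by -0.20 (adjusted p = 0.515) and 0.03 (adjusted p = 0.716) in repeat group 1, and their activating counterparts Rora and Rorb by -0.07 (adjusted p = 0.851) and -0.08 (adjusted p = 0.858). The standard error of Nr1d1 was 0.17, about the size of its difference, and both groups overlapped.

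The output factors other than Ciart did not pass. Dbp was 9.93, 9.95 and 9.36 in Ctrl 8h mice of repeat group 1 and 9.86, 10.27 and 9.92 in those of repeat group 2, against 9.43 to 10.02 with a median of 9.65 in Ctrl 0h mice. The same Ctrl 8h mouse that was lowest for Ciart, mouse 79, was lowest for Dbp, below all Ctrl 0h mice. The difference of Dbp was 0.04 in repeat group 1 (adjusted p = 0.876) and 0.18 over all arrays (adjusted p = 0.442). Tef differed by 0.10 (adjusted p = 0.348), Hlf by -0.15 (adjusted p = 0.5), Nfil3 by 0.02 (adjusted p = 0.959) and Bhlhe40 by -0.06 (adjusted p = 0.906) in repeat group 1. Bhlhe41, whose product represses E-box genes, was the clock gene of smallest adjusted p over all arrays, 0.36 higher (adjusted p = 0.0449), and was 0.28 higher in repeat group 1 (adjusted p = 0.165).

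**Figure D2:**
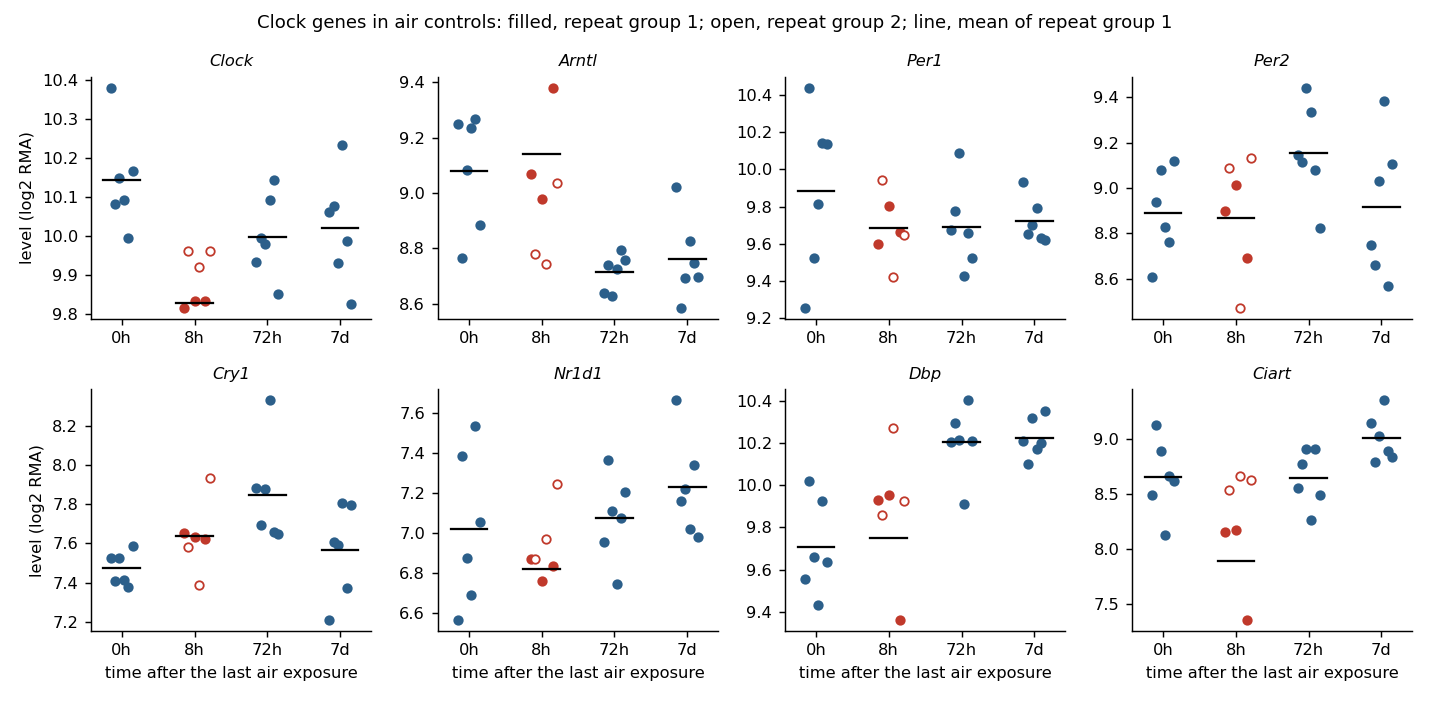
Level (vertical, log2 RMA) of 8 clock genes in each Ctrl mouse at 0h, 8h, 72h and 7d (horizontal). Filled points are repeat group 1, open points repeat group 2, and the short line at each time is the mean of repeat group 1. Ciart dips at 8h in repeat group 1 while the open points stay near the 0h level, and Dbp averages higher at 72h and 7d than at 0h or 8h.

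Ctrl 72h and Ctrl 7d mice, harvested whole days after the last session, gave further points on the same genes. Dbp averaged 9.71 ± 0.22 at 0h, 9.88 ± 0.29 at 8h, 10.20 ± 0.16 at 72h and 10.22 ± 0.09 at 7d (SD, n = 6 each). The 2 later groups averaged above both earlier ones. Ciart averaged 8.65 ± 0.34, 8.25 ± 0.49, 8.65 ± 0.26 and 9.003 ± 0.21 at these times, and Arntl 9.08 ± 0.21, 8.998 ± 0.23, 8.71 ± 0.07 and 8.76 ± 0.15. Set against the mean of 72h and 7d within repeat group 1, Ctrl 8h mice were lower in Ciart by -0.93 (adjusted p = 0.00176), and Dbp (-0.47, adjusted p = 0.018) and Arntl (0.40, adjusted p = 0.0337) did not pass. Clock differed by -0.18 there (adjusted p = 0.144). The same contrast called 577 probesets (1.28%) in repeat group 1, 308 higher and 269 lower, and 0 probesets (0%) with all 6 Ctrl 8h mice, where limma gave 5 at an adjusted p of 0.05 and 6175 at an unadjusted p of 0.05. Ctrl 8h minus Ctrl 0h had called 2035 probesets in repeat group 1 and 643 with all 6 Ctrl 8h mice. Both comparisons share the Ctrl 8h mice. Which of the differences from Ctrl 0h go with time of day, and which with time since the last session, was not tested.

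The same 8 hours were read in CIE mice. In repeat group 1, CIE 8h minus CIE 0h called 2628 probesets (5.84%), and 2679 (5.95%) with all CIE 8h mice. Dbp was 9.66, 9.42 and 9.31 in CIE 8h mice of repeat group 1, against 10.08 to 10.72 with a median of 10.60 in CIE 0h mice, a difference of -1.07 (adjusted p = 2.04e-06) beside 0.04 in Ctrl mice. Ciart was 8.08, 7.71 and 7.22 in those CIE 8h mice, against 8.96 to 9.46 with a median of 9.20 in CIE 0h mice, a difference of -1.55 beside -0.76 in Ctrl mice. For both genes the CIE groups did not overlap.

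The difference between the 2 changes was tested as CIE change minus Ctrl change, which called 1685 probesets (3.74%) in repeat group 1 and 1536 (3.41%) over all arrays. Among the 19 clock genes it called Dbp (-1.11, adjusted p = 0.000169), Tef (-0.56, adjusted p = 9.67e-05) and Nr1d2 (-0.31, adjusted p = 0.00429) in repeat group 1, and not Ciart (-0.79, adjusted p = 0.0448). Over all arrays it called the same 3 genes and also Ciart (-1.16, adjusted p = 0.00359) and Nfil3 (0.87, adjusted p = 0.00536). Tef fell by 0.47 in CIE mice (adjusted p = 8.56e-06), beside a difference of 0.10 in Ctrl mice, and Nr1d2 by 0.28 (adjusted p = 0.000375), beside 0.03. At 0h, CIE and Ctrl mice did not overlap in Dbp, which averaged 10.54 ± 0.23 in CIE 0h mice and 9.71 ± 0.22 in Ctrl 0h mice (SD, n = 6 each).

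**Figure D3:**
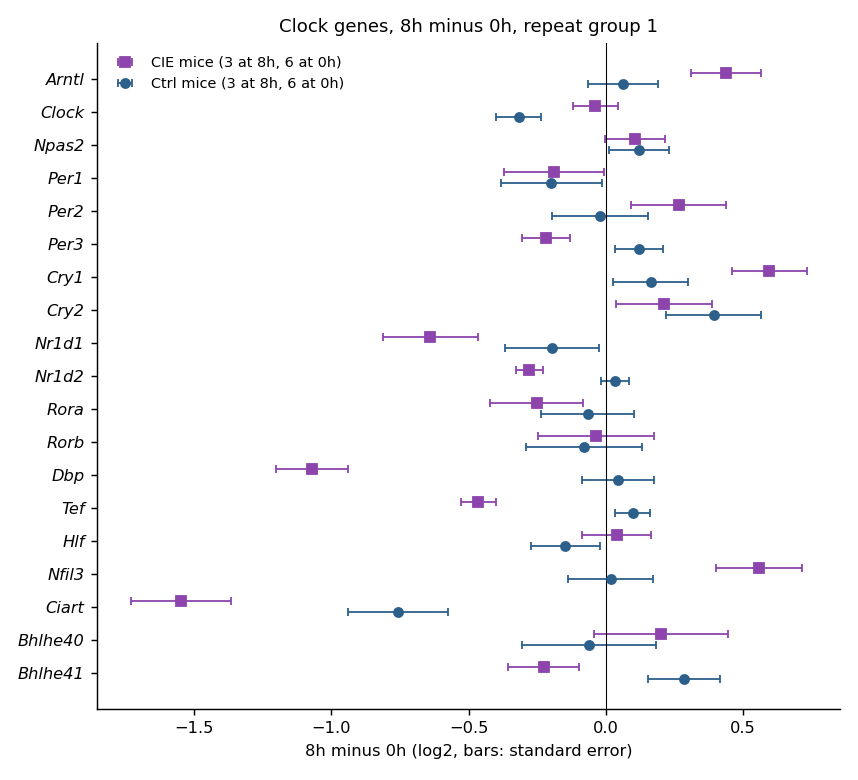
Change of the 19 clock genes (rows), 8h minus 0h on the log2 scale within repeat group 1, in CIE mice (squares) and Ctrl mice (circles), with standard errors from the fit. Dbp stands at -1.07 in CIE mice and 0.04 in Ctrl mice, and Ciart at -1.55 and -0.76.

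The genes with the largest changes were not clock genes. By a rule of size, 37 genes were taken, the 15 largest rises and 15 largest falls over all arrays and the 10 of each in repeat group 1. In repeat group 1 the Ctrl 8h and Ctrl 0h mice did not overlap in any of the 37, and over all 12 mice in 26, as the choice by size favors. The share of all probesets without overlap is not given here, so these counts only describe the genes chosen. For 18 of them the probeset named was not the gene's brightest, and the brightest passed in 0 of these 18 in either fit, so each of these values describes the probeset it was read on. Another 14 have a single probeset. Of the 30 taken over all arrays, 19 passed with any 1 of the 12 mice left out, 12 no longer passed without Ctrl 0h mice 2 and 20, and none passed with the Ctrl 8h mice of repeat group 2 alone. That last fit cannot decide whether these genes differ, because the batch adjustment can shrink or add differences at 8h in a repeat group of 8h mice alone. Of the 20 taken from repeat group 1, 13 passed with any 1 of its 9 mice left out.

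Tiam2, a guanine exchange factor for the small GTPase Rac, had the largest rise. Probeset 1420146_at read 6.94, 6.62 and 6.36 in Ctrl 8h mice of repeat group 1 and 6.12, 5.99 and 6.43 in those of repeat group 2, against 5.32 to 5.72 with a median of 5.42 in Ctrl 0h mice. All Ctrl 8h mice were above all Ctrl 0h mice, and those of repeat group 1 mostly above those of repeat group 2. The difference was 0.97 with a standard error of 0.14 over all arrays (adjusted p = 0.000162), or 1.95-fold, and 1.20 in repeat group 1. The brightest of its 3 probesets moved by 0.05 over all arrays. Tiam2 averaged 5.44 at 0h, 6.41 at 8h, 6.37 at 72h and 6.14 at 7d in Ctrl mice, and 5.55 in CIE 8h mice beside 5.82 in CIE 0h mice.

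Spg7, the mitochondrial protease paraplegin, followed on probeset 1441585_at. It read 6.36, 6.11 and 6.18 in Ctrl 8h mice of repeat group 1 and 5.90, 5.72 and 5.76 in those of repeat group 2, against 4.93 to 5.31 with a median of 5.10 in Ctrl 0h mice. The groups did not overlap. The difference was 0.89 with a standard error of 0.13 (adjusted p = 0.000162), and the brightest probeset of Spg7 moved by 0.17. Its Ctrl means were 5.12 at 0h, 6.01 at 8h, 6.14 at 72h and 5.78 at 7d, so that 0h was the lowest time.

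Some rises had a sole or brightest probeset. Tlr3, a receptor for double-stranded RNA, read 6.52, 6.55 and 6.52 in Ctrl 8h mice of repeat group 1 and 6.21, 5.89 and 6.35 in those of repeat group 2, against 5.46 to 6.07 with a median of 5.59 in Ctrl 0h mice. The groups overlapped through Ctrl 0h mouse 2 and 1 mouse of repeat group 2, and the difference was 0.69 (adjusted p = 0.00155). Fmo4, a flavin-containing monooxygenase, read 5.31, 5.48 and 5.47 in repeat group 1 and 4.90, 4.74 and 4.72 in repeat group 2, against 4.19 to 4.51 with a median of 4.29 in Ctrl 0h mice. It did not overlap, with a difference of 0.79 (adjusted p = 0.00127). Iqck rose by 0.83 (adjusted p = 0.000898), and it, too, was above every Ctrl 0h mouse in all 6 Ctrl 8h mice, though in repeat group 1 it did not pass without Ctrl 8h mouse 79 (adjusted p = 0.0152).

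The largest rise in repeat group 1 was Slc16a3, a monocarboxylate transporter (MCT4) that exports lactate and is typical of astrocytes in brain. It read 5.74, 5.43 and 5.39 in Ctrl 8h mice of repeat group 1, against 4.13 to 4.30 with a median of 4.26 in Ctrl 0h mice. The difference was 1.28 with a standard error of 0.14 (adjusted p = 4.43e-07), and 1.08 against the mean of 72h and 7d (adjusted p = 1.17e-05). In repeat group 2 the Ctrl 8h mice read 4.43, 4.42 and 4.20, in and just above the Ctrl 0h range, so that Slc16a3 was higher in 1 repeat group and was the probeset on which the repeat groups themselves differed.

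The largest fall was Zfp189, a zinc finger transcription factor gene. It read 5.45, 5.73 and 5.46 in Ctrl 8h mice of repeat group 1 and 5.87, 6.37 and 6.71 in those of repeat group 2, against 6.77 to 7.31 with a median of 7.12 in Ctrl 0h mice. No Ctrl 8h mouse reached the lowest Ctrl 0h mouse. The difference was -1.18 with a standard error of 0.23 over all arrays (adjusted p = 0.00204), or 0.441-fold, and -1.56 in repeat group 1 (adjusted p = 0.000106), or 0.338-fold. Ctrl means were 7.11 at 0h, 5.93 at 8h, 5.94 at 72h and 6.45 at 7d. CIE mice of repeat group 1 changed by -0.72 over the same hours. Over all arrays Zfp189 did not pass without Ctrl 8h mouse 66 (adjusted p = 0.012) or 79 (adjusted p = 0.0114), nor without Ctrl 0h mice 2 and 20 (adjusted p = 0.0156), while in repeat group 1 it passed with any 1 mouse left out.

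Coa4, an assembly factor of cytochrome c oxidase, read 4.72, 4.80 and 4.95 in Ctrl 8h mice of repeat group 1 and 5.48, 5.31 and 5.31 in those of repeat group 2, against 5.99 to 6.57 with a median of 6.07 in Ctrl 0h mice. The groups were well apart, with a difference of -1.05 and a standard error of 0.18 (adjusted p = 0.000686, and 0.0104 without Ctrl 0h mice 2 and 20). Ctrl 0h was its high group, at a mean of 6.14, beside 5.10 at 8h, 5.01 at 72h and 5.38 at 7d, and CIE 8h and CIE 0h mice averaged 5.34 and 5.14. Icos, a costimulatory receptor of T cells, was 4.80, 4.94 and 4.94 in repeat group 1 and 5.51, 5.47 and 5.55 in repeat group 2, against 5.85 to 6.14 with a median of 5.94 in Ctrl 0h mice. It did not overlap either, with a difference of -0.76 (adjusted p = 0.000516).

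**Figure D4:**
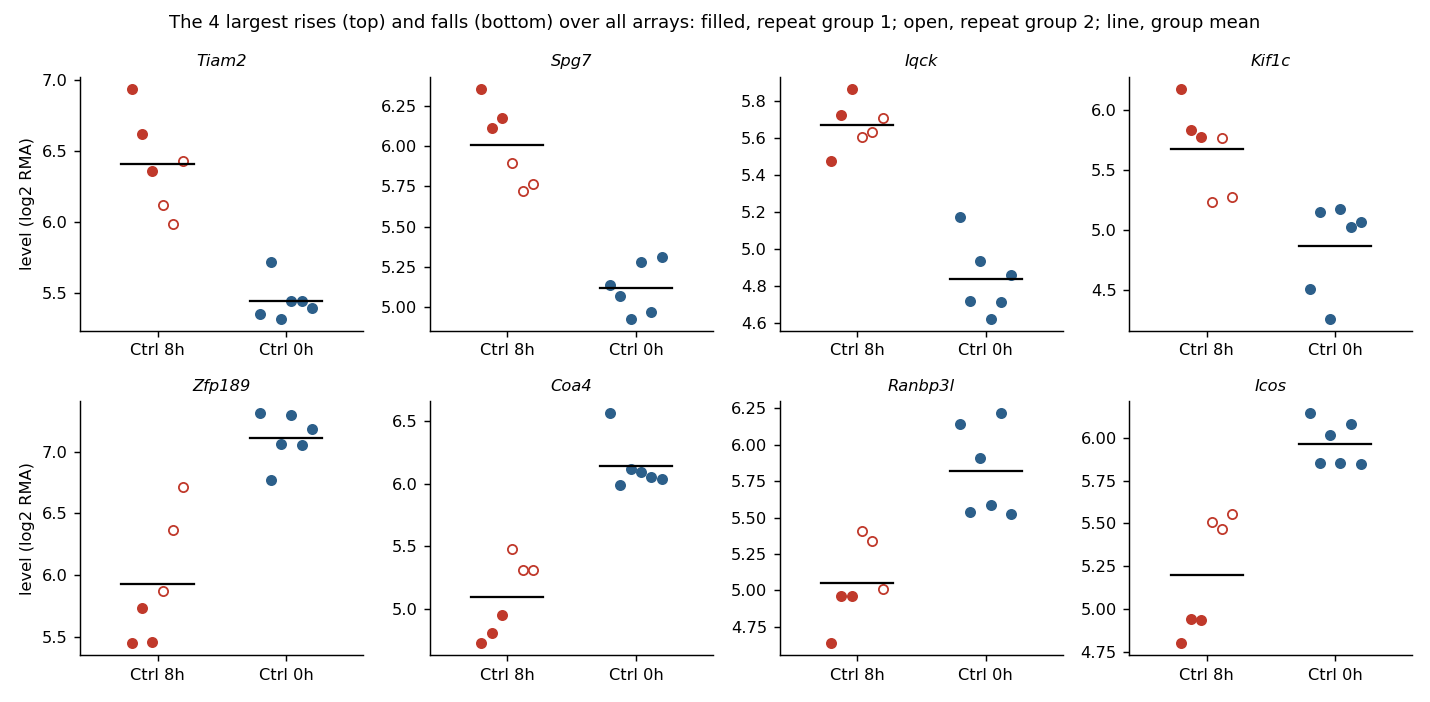
Level (vertical, log2 RMA) of the 4 largest rises (top) and 4 largest falls (bottom) in each Ctrl 8h and Ctrl 0h mouse; filled points are repeat group 1, open points repeat group 2, and the line is the group mean. In all 8 genes the 6 Ctrl 8h mice lie on one side of the 6 Ctrl 0h mice, with open points nearer to Ctrl 0h than filled ones in most panels.

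The other named genes rose by 0.70 to 0.81 (Kif1c, a kinesin; Layn, a hyaluronan receptor; Sphkap, an anchor of protein kinase A; Pacc1, a proton-activated chloride channel; Spn, a leukocyte sialoprotein; Lcn9, Lrch4, Gm10638, AI854703 and 1 of the growth hormone probesets, Gh). Gh moved the other way, by -0.31, on its brightest probeset. The other named falls over all arrays lay between -0.77 (Ranbp3l) and -0.62 (Slc29a4, a monoamine transporter), among them Tmem45a at -0.75, Txlnb at -0.71 and Fgd2, an exchange factor for Cdc42, at -0.65. Kif1c, Ranbp3l, Txlnb, Gh, Gm10638, Ninl, Lpin2, Homez and AU015791 each lost the call over all arrays when any of several single mice was left out, and Lncenc1 did without Ctrl 8h mouse 75. In repeat group 1 alone the rule added Rnf13, a ubiquitin ligase gene that rose by 1.12 (adjusted p = 0.000636, and 0.0126 without Ctrl 8h mouse 66), and falls of Bche, which encodes butyrylcholinesterase (-1.10, adjusted p = 0.00502), Cd47, a signal against phagocytosis (-1.02, adjusted p = 0.0038), and Smpdl3b (-0.999, adjusted p = 0.0073). Bche, Cd47 and the likewise named Etnppl and Smyd5 each lost the call without any of 4 single mice, and Smpdl3b kept it in 1 of 9 such fits.

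Bright probesets moved by less. The following genes of the highest tertile were picked after their values were seen. Smc6 and Smc5 encode partner subunits of a DNA repair complex and went opposite ways. Smc6 read 8.66, 8.62 and 8.36 in Ctrl 8h mice of repeat group 1 and 8.69, 8.82 and 8.68 in those of repeat group 2, against 8.88 to 9.25 with a median of 9.02 in Ctrl 0h mice, a difference of -0.42 (adjusted p = 0.00334). Smc5 read 8.19, 8.17 and 8.06 in repeat group 1 and 8.01, 8.12 and 8.02 in repeat group 2, against 7.58 to 7.80 with a median of 7.72, a difference of 0.44 in repeat group 1 (adjusted p = 0.00227) and 0.40 over all arrays (adjusted p = 0.0369). Neither gene overlapped between Ctrl 8h and Ctrl 0h mice.

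Med1, a subunit of the mediator complex that links nuclear receptors to RNA polymerase, was 10.26, 10.24 and 10.18 in Ctrl 8h mice of repeat group 1 and 9.69, 9.99 and 9.95 in those of repeat group 2, against 9.39 to 9.85 with a median of 9.69 in Ctrl 0h mice. Only repeat group 2 overlapped Ctrl 0h. Med1 rose by 0.40 over all arrays (adjusted p = 0.00947) and by 0.57 in repeat group 1 (adjusted p = 0.000258). Deptor, an inhibitor of mTOR, was 7.90, 7.62 and 7.82 in repeat group 1, against 8.61 to 8.71 with a median of 8.65 in Ctrl 0h mice, a difference of -0.87 there (adjusted p = 0.00519). The Ctrl 8h mice of repeat group 2, at 8.70, 8.47 and 8.65, sat at the Ctrl 0h level of Deptor. One probeset of Sdha, the flavoprotein of respiratory complex II, was 12.31, 12.32 and 12.31 in repeat group 1 and 12.37 in all 3 mice of repeat group 2, against 12.43 to 12.60 with a median of 12.51 in Ctrl 0h mice, a difference of -0.18 (adjusted p = 0.00924). It was the smallest of these shifts, and the groups were still apart.

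Few genes of the lists passed. The 37 lists held 687 genes, 621 of them measured, and each gene was read on its brightest probeset. Over all arrays 1 rose and 1 fell, 0.322% of the 621 where 1.18% of all genes passed, and in repeat group 1 the counts were 6 and 3, 1.45% where 3.86% of all genes passed. An unadjusted p of 0.05 was reached by 76 of the 621 over all arrays (12.2%) and by 92 in repeat group 1 (14.8%), beside 18.9% and 22.9% of all genes.

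Trem2 and Gal passed in both fits, and with any 1 of the 9 mice of repeat group 1 left out. Trem2, a lipid receptor of microglia, read 6.01, 5.88 and 5.86 in Ctrl 8h mice of repeat group 1 and 5.25, 5.21 and 5.34 in those of repeat group 2, against 4.80 to 5.20 with a median of 4.96 in Ctrl 0h mice. The groups were apart, and the difference was 0.59 over all arrays (adjusted p = 0.00364) and 0.92 in repeat group 1 (adjusted p = 1.98e-05). None of the other 14 measured microglial genes passed in either fit (0 over all arrays and 1 in repeat group 1 at an unadjusted p of 0.05), among them Cx3cr1 (-0.21, adjusted p = 0.171, in repeat group 1). Gal, the precursor of the neuropeptide galanin, read 4.32, 4.39 and 4.38 in repeat group 1 and 4.60, 4.61 and 4.63 in repeat group 2, against 4.71 to 5.01 with a median of 4.87 in Ctrl 0h mice. It was lower in every Ctrl 8h mouse, by -0.38 (adjusted p = 0.00133) and -0.51 (adjusted p = 4.36e-05), at a level in the lowest tertile.

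In repeat group 1 alone 5 further list genes rose. Kcna3, a voltage-gated potassium channel, was 6.67, 6.42 and 6.48, against 5.50 to 5.86 with a median of 5.76 in Ctrl 0h mice, a difference of 0.78 (adjusted p = 3.07e-05) that passed with any 1 mouse left out. The Ctrl 8h mice of repeat group 2 read 5.98, 5.83 and 5.85 for Kcna3, at or just above the upper end of Ctrl 0h. The splicing factor gene Hnrnpm rose by 0.36 (adjusted p = 0.00142), the chemokine gene Ccl2 by 0.60 (adjusted p = 0.00236), the orexin precursor gene Hcrt by 0.36 (adjusted p = 0.00543) and the matrix protein gene Ccn1 by 0.84 (adjusted p = 0.00598). These 4 lost the call without some single mouse, when their adjusted p reached 0.0264, 0.0214, 0.0318 and 0.104. Hcrt is known from hypothalamic neurons, and its level here was 6.26, 6.26 and 6.27 in those Ctrl 8h mice, against 5.71 to 6.14 with a median of 5.86 in Ctrl 0h mice.

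Few genes of neuronal activity passed in Ctrl mice. Of 22 immediate early transcription factor genes, 0 passed in limma in either fit, with 1 over all arrays and 2 in repeat group 1 at an unadjusted p of 0.05, and their median difference was -0.099 over all arrays and -0.016 in repeat group 1. With 1.18% of all genes called over all arrays and 3.86% in repeat group 1, a list of 22 would hold few calls. In repeat group 1, 3 of the 22 passed on another, dimmer probeset, all higher at 8h, Egr3 by 0.79, Nr4a2 by 0.62 and Nr4a3 by 0.99. Of 25 activity-induced effector genes, Ccn1 alone passed, in repeat group 1, with medians of -0.071 and 0.022. In CIE mice of repeat group 1 the medians of these lists were 0.615 and 0.632, with 6 and 12 genes higher and 0 lower, beside 1154 calls among all 18193 genes (6.34%) in that fit, of which 432 were higher and 722 lower, and a median over all of these genes of -0.035. Klf10, a zinc finger immediate early gene, had the smallest p of its list in Ctrl mice, at 9.59, 9.74 and 9.74 in Ctrl 8h mice of repeat group 1, against 9.95 to 10.41 with a median of 10.14 in Ctrl 0h mice, a difference of -0.49 (adjusted p = 0.0565).

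The change of Klf10 in CIE mice was 0.97, and CIE change minus Ctrl change was 1.46 (adjusted p = 0.000132). Egr3 gave 1.19 in CIE mice and 0.14 in Ctrl mice, a difference between changes of 1.05 (adjusted p = 0.00256). At 8h the mean of Egr3 was higher in CIE than in Ctrl mice, and at 0h it was lower. Egr3 averaged 11.99 ± 0.31 in CIE 8h mice (SD, n = 3) and 10.80 ± 0.12 in CIE 0h mice (SD, n = 6), beside 11.59 ± 0.14 in Ctrl 8h mice (SD, n = 3) and 11.44 ± 0.18 in Ctrl 0h mice (SD, n = 6).

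Clock-controlled genes, 19 measured, had a median of -0.055 in repeat group 1, and Ciart alone passed. Pdk4, a kinase that shuts pyruvate dehydrogenase, did not pass (-0.87, adjusted p = 0.0532). Of 7 clock kinases and ligases, 0 passed, with 1 over all arrays and 2 in repeat group 1 at an unadjusted p of 0.05. At the shares of all genes called, 1.18% over all arrays and 3.86% in repeat group 1, a list of 7 would hold few calls or none. Fbxl21, a ligase subunit for cryptochromes, came closest (-0.46, adjusted p = 0.0171), and Btrc passed on another, dimmer probeset in repeat group 1 (-0.63). The cold-inducible Cirbp differed by -0.18 (adjusted p = 0.326).

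The medians of stress lists were near 0. None of 26 glucocorticoid-responsive genes (median -0.050 in repeat group 1; 5 and 4 at an unadjusted p of 0.05 over all arrays and in repeat group 1), of 23 heat shock genes (0.062; 4 and 7) and of 26 genes of the unfolded protein response (0.011; 4 and 4) passed in limma on their brightest probeset. Among all genes 1.18% passed over all arrays and 3.86% in repeat group 1, so lists of this length would hold few calls. An unadjusted p of 0.05 was reached by 18.9% and 22.9% of all genes. In repeat group 1 the heat shock list, at 7 of 23, lay above that share, and the glucocorticoid and unfolded protein lists below it. On another probeset Hsph1 and Atf4 rose and Ern1 fell in repeat group 1, and Ern1 also over all arrays. Hspa1a, the inducible Hsp70, came closest, 0.55 higher (adjusted p = 0.0106). Fkbp5, a classical glucocorticoid target, differed by 0.26 (adjusted p = 0.171). On the brightest probeset, lists of the respiratory chain (39 genes, median 0.014) and of cytosolic ribosomal proteins (27 genes, median -0.018) also had no member that passed, with 4 each in repeat group 1 at an unadjusted p of 0.05 and 1 and 3 over all arrays. Interferon-stimulated genes had a median of -0.215 over all arrays and -0.054 in repeat group 1, and meningeal genes -0.254 and -0.375, all 12 of them below 0, with none passing (3 and 0 interferon-stimulated genes over all arrays and in repeat group 1 at an unadjusted p of 0.05, and 0 meningeal genes). Without Ctrl 0h mouse 56 the medians of the meningeal genes were 0.084 and -0.006, with 8 and 5 of the 12 above 0. The mean level of the interferon-stimulated list was 8.021 in Ctrl 8h mouse 66 and 6.785 to 6.994 in the other Ctrl 8h mice. Among Ctrl 0h mice it ranged from 6.575 to 8.028, so single mice weigh on that list.

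**Figure D5:**
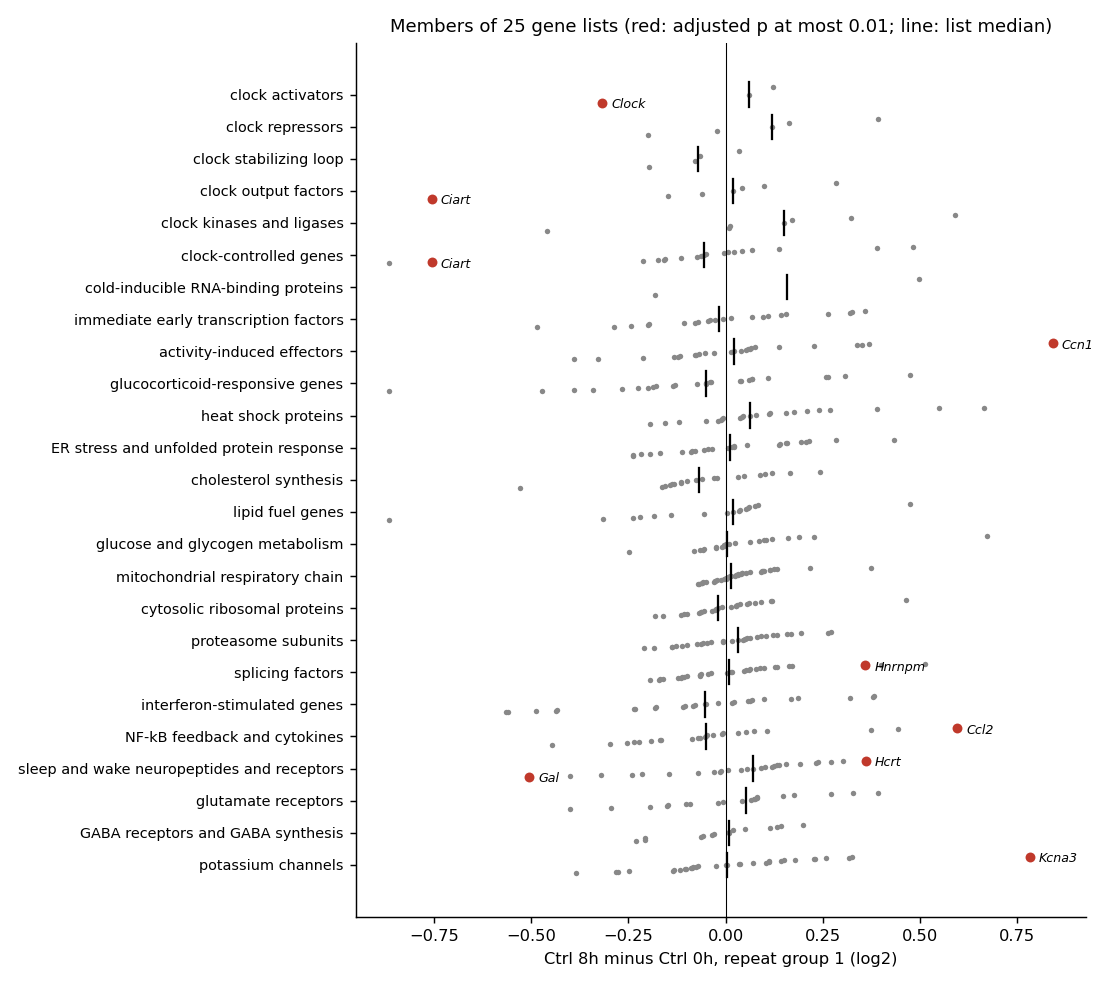
Ctrl 8h minus Ctrl 0h in repeat group 1 (horizontal, log2) of the members of 25 gene lists (rows), with the median of each list as a line; red points have an adjusted p of at most 0.01. Medians lie near 0, and the red points are the genes of these 25 lists that passed, such as Kcna3 at 0.78 and Gal at -0.51. Ciart is in more than 1 of the lists, and the microglia list with Trem2 is not drawn.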

How the data were processed

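RNA of the medial PFC of single mice was extracted with RNeasy columns, labelled with biotin and hybridized to Affymetrix arrays. The authors deposited log2 RMA values per probeset. Per their methods, arrays were background corrected and quantile normalized with the affy package within hybridization batches, quantile normalized together, and adjusted with ComBat, in PFC with repeat group as the only batch factor. Such an adjustment can shrink or add differences at 8h, because repeat group 2 held 8h mice alone. Their versions are not stated there.

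Values were used as deposited. Limma 3.58.1 in R 4.3.3 estimated 1 mean per group from all 47 arrays (8 groups), and again from the 42 arrays of repeat group 1. Adjusted p-values are Benjamini-Hochberg over 45037 probesets, called at 0.01. The fits were tested on simulated data. Of the probesets, 34945 had 1 gene symbol, 932 several and 9160 none listed, and symbols were updated through RefSeq genes of GRCm38.p6. List genes were read on their brightest probeset.

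Genes named were the 15 largest rises and falls over all arrays and the 10 of each in repeat group 1 among probesets with 1 symbol (cross-hybridizing suffixes only where a gene has no other), all core and output clock genes, and up to 4 passing members of other lists, or 2 where none passed. The comparison and the lists were chosen with earlier results of these data known. Other settings are given in the closing section; those without mice 2 and 20, without CIE 8h arrays of repeat group 2, the meninges list without mouse 56, and most of those for repeat group 1 were chosen after seeing the data.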

Additional observations from a re-analysis of the deposited data

Results flagged for a closer look

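In groups of 6 mice the sample furthest out was compared with the rest by its gap relative to the range, over 112 groups, and 7 stood out, where chance gives about 1 in 20. Among Ctrl 8h mice these were mouse 50 for Hlf at 11.3 and mouse 32 for Bhlhe41 at 6.00, both of repeat group 2. Among Ctrl 0h mice these were mouse 12 for Tiam2 at 5.72, mouse 56 for Rorb at 9.69, and mouse 2 for Tlr3 at 6.07, Coa4 at 6.57 and Per3 at 9.24. Mouse 2 is 1 of the 2 mice that stood apart on the first principal component.

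The change between 0h and 8h in CIE mice minus that in Ctrl mice, in repeat group 1, passed at an adjusted p of 0.01 for 8 of the clock and activity genes. It was -1.11 for Dbp, -0.56 for Tef and -0.31 for Nr1d2. It was 1.46 for Klf10, 1.45 for Dusp4, 1.19 for Trib1, 1.05 for Egr3 and 0.91 for Pcsk1.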

How the results depend on the processing

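The 643 calls over all arrays became 347 with only the 12 arrays of both groups, 2035 with repeat group 1 arrays only, 1230 with only the 9 repeat group 1 arrays of both groups, 0 with the Ctrl 8h arrays of repeat group 2 only (limma, 4583 at an unadjusted p of 0.05), 2223 with repeat group as a term, 5256 with array weights, 167 with the lowest tertile of probesets left out, 168 without Ctrl 0h mice 2 and 20, 1153 without the CIE 8h arrays of repeat group 2, and 2331 at an FDR of 0.05. Leaving out 1 mouse gave 184 to 763, with the lowest counts of 184, 187 and 194 without Ctrl 8h mice 66, 75 and 79, and 356, 316 and 387 without Ctrl 0h mice 2, 20 and 48. Quantile normalization once more (667), centring (657) and a robust variance trend (606) moved it little.

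The 2035 calls of repeat group 1 became 4848 at an FDR of 0.05, 7775 with array weights, 799 without the lowest tertile, 1230 with only its 9 arrays and 1282 without Ctrl 0h mice 2 and 20, and 616 to 1995 with 1 mouse left out (616, 705 and 783 without Ctrl 8h mice 66, 75 and 79). Against 72h and 7d, the 0 calls became 577 in repeat group 1, 664 with repeat group as a term and 5 at an FDR of 0.05. At an FDR of 0.05, CIE mice gave 6069 calls instead of 2679, the difference between changes 4263 instead of 1536, and the repeat groups 31 instead of 1. Repeat group as a term was applied to values already adjusted for it, and the counts with repeat group 2 only also rest on that adjustment.

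Uncalled clock genes near 0 changed sign. Arntl was 0.061 in repeat group 1 and with its 9 arrays, and 0.031 with array weights. Npas2 was -0.088 and Nr1d1 0.010 with repeat group 2. Per2 was 0.0076 with repeat group 2, 0.0060 with repeat group as a term and 0.0031 with centring. Rora was 0.016 without mice 2 and 20, Rorb 0.049 with repeat group as a term, and Nfil3 0.018 in repeat group 1 and with its 9 arrays. With 1 mouse left out, Npas2 ran from -0.032 to 0.051, Nr1d1 from -0.183 to 0.011 and Per2 from -0.063 to 0.075. The causes were not tested. No paired analysis was possible because mouse numbers are not shared between groups.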
